A study of Homo sapiens with 18 samples.

Results

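RPE1 cells that had doubled their DNA under an Aurora kinase inhibitor were compared with untreated RPE1 cells sorted for a diploid DNA content. RPE1 is an established, near-diploid cell line from human retinal pigment epithelium. The ZM447439 4N group holds cells given ZM447439 and sorted for 4N DNA content, and the untreated 2N group holds cells with no drug sorted for 2N content. Each group has 3 libraries of polyadenylated RNA, so 6 of the 18 libraries of the series enter the comparison, and the series design calls the replicates biological. Cells of all groups grew in DMEM with 10% serum, were exposed for 60 min to a Hoechst DNA dye (2 µg/mL) and were sorted by DNA content. The labels give ZM447439 at 2.5 µM for 24 h and repeat that treatment text on every library, the untreated ones included. The other groups are ZM447439 2N, cytochalasin D 4N, cytochalasin D 2N and untreated 4N, also with 3 libraries each. All values come from a single cell line, and a sort by DNA content does not separate a tetraploid cell in G1 from a diploid cell in G2 or mitosis.

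ZM447439 blocks Aurora kinases, which attach chromosomes to the spindle and drive cytokinesis. Cells treated with it enter mitosis, fail to divide and return to a G1-like state with doubled chromosomes, and many then stop cycling. Untreated diploid cells sorted at 2N are mainly in G1 and early S phase, so they hold fewer G2 and mitotic cells than an untreated 4N sort. In proliferating cells, E2F factors switch on replication genes before S phase, and the MuvB complex with B-MYB and FOXM1 switches on mitotic genes in G2. The p53 protein and its target p21 act against both programmes by keeping retinoblastoma-family proteins and MuvB in their repressive forms.

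The deposited levels are RPKM, reads scaled to library size and gene length, here the genomic span of each gene with introns included. Implied library sizes were 51.1 to 78.3 M reads. Of 57773 gene identifiers, 13037 averaged 0.5 RPKM or more over the 18 libraries and were tested with limma on log2(RPKM + 0.5). Log2 differences below are ZM447439 4N minus untreated 2N with the standard error (SE) unless another pair is named, and a gene passed at an adjusted p below 0.05. ZM447439 4N replicate 1 and untreated 2N replicate 3 stood apart. Their root-mean-square deviations from their own group's mean were 0.182 and 0.160 on the log2 scale, against 0.122 and 0.121 for the other ZM447439 4N libraries and 0.120 and 0.111 for the other untreated 2N libraries. Replicate 1 also deviated most in ZM447439 2N (0.214), cytochalasin D 4N (0.195) and cytochalasin D 2N (0.195), and replicate 3 in untreated 4N (0.159). The cause was not tested. Fits without both libraries that stood apart kept these libraries of the other groups. RPKM are relative to the size of a library, and in sorted bulk samples fewer cells of a kind and less RNA per cell cannot be told apart.

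The cells were checked against marker lists. Of 18 retinal pigment epithelium markers 7 passed the filter on level, among them the simple-epithelium keratin KRT18 at 46.0 to 92.1 RPKM in ZM447439 4N and 70.8 to 86.01 RPKM in untreated 2N libraries. Some defining genes of mature retinal pigment epithelium were near 0. The visual-cycle isomerase RPE65 was at most 0.00973 RPKM in ZM447439 4N and 0.00846 RPKM in untreated 2N libraries. Others were not: the channel gene BEST1 reached 90.5 RPKM in ZM447439 4N and 54.6 RPKM in untreated 2N libraries. OTX2, PMEL and RDH5 passed the filter as well, but PMEL and RDH5 share exon bases with another tested gene (2.28% and 68.2%). Whether BEST1 shares exon positions with another gene was not checked. The libraries mark no strand, so its level may include reads of another gene. The summed level of the marker list, in which BEST1 and KRT18 were highest, was 155.5 to 178.1 RPKM in ZM447439 4N and 151.1 to 163.0 RPKM in untreated 2N libraries. Of the 18 markers of blood cells, CD68, found in lysosomes of many cell types, was alone in passing the filter, and the T cell gene CD3D was at 0 in all 6 libraries.

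Between ZM447439 4N and untreated 2N cells, 5906 genes passed (45.3% of those tested), 2342 higher (18%) and 3564 lower (27.3%). Most differences were small: 67 genes were higher by 2-fold or more (0.514%) and 150 lower by 2-fold or more (1.15%). The median over all genes tested was -0.04. The split depended on scaling. After quantile normalization 2913 genes were higher (22.3%) and 2919 lower (22.4%), and with rescaling to a common median ratio 2879 were higher (22.1%) and 3081 lower (23.6%). With RPM, reads scaled to library size without division by span, 20106 genes were tested, and 4417 were higher (22%) and 4901 lower (24.4%). Without both libraries that stood apart 2200 genes were higher (16.9%) and 3008 lower (23.1%).

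**Figure D1:**
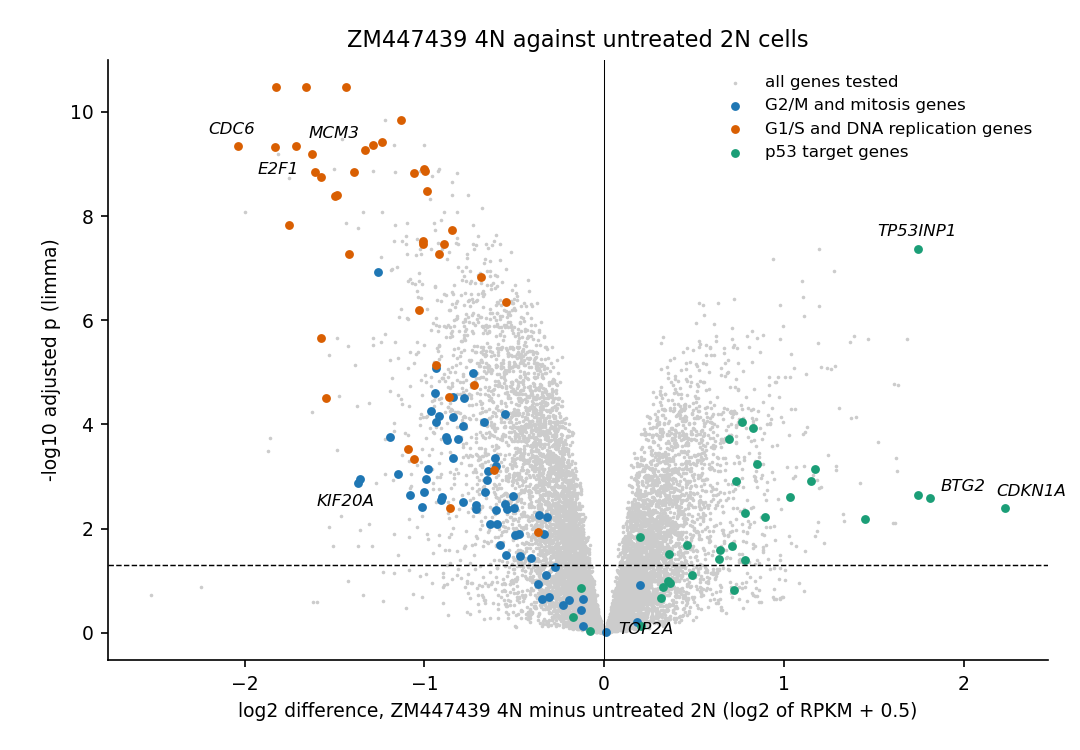
Each point is a gene, with the log2 difference (ZM447439 4N minus untreated 2N) across and -log10 of limma's adjusted p up, and the dashed line marks an adjusted p of 0.05. Genes of the G1/S list lie on the left, from -2.04 to -0.37, the G2/M genes lie nearer to 0, and p53 targets lie on the right, up to CDKN1A at 2.23.

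Genes of the G1/S transition and DNA replication gave the largest falls. All 40 tested members of the list were lower in ZM447439 4N cells, against 27.3% of all genes, with a median of -1.11. In all 40 every ZM447439 4N library lay below every untreated 2N library, where 33.6% of all genes did so. The filter left out 22 of the 62 members in the table. With RPM all 62 could be tested, and all 62 were lower (median -1.66). Their summed level was 101.4 to 107.4 RPKM in ZM447439 4N libraries, against 290.6 to 303.2 RPKM in untreated 2N libraries.

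Among the genes that load the replicative helicase, CDC6 had 1.40, 1.15 and 1.05 RPKM in ZM447439 4N and 6.16, 6.33 and 6.90 RPKM in untreated 2N libraries (log2 difference -2.04, SE 0.08, adjusted p = 4.54e-10). CDT1, which acts beside CDC6 at origins, had 1.97, 2.10 and 2.10 RPKM in ZM447439 4N and 7.72, 8.33 and 8.37 RPKM in untreated 2N libraries. In both genes every ZM447439 4N library lay far below every untreated 2N library. The 6 subunits of the helicase ring, MCM2 to MCM7, fell by similar amounts, between -1.71 for MCM3 and -1.44 for MCM6. MCM3 had 3.00, 3.63 and 3.46 RPKM in ZM447439 4N and 12.1, 11.9 and 12.3 RPKM in untreated 2N libraries (SE 0.07, adjusted p = 4.54e-10). Geminin, the inhibitor of CDT1 that accumulates in S phase and G2, was lower as well (GMNN, -1.33).

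Of the S-phase regulators, the transcription factor E2F1 had 1.49, 1.55 and 1.52 RPKM in ZM447439 4N and 6.26, 6.62 and 7.25 RPKM in untreated 2N libraries (log2 difference -1.83, SE 0.07, adjusted p = 4.76e-10). CCNE2, which encodes cyclin E2, the partner of CDK2 at S-phase entry, had 0.534, 0.571 and 0.539 RPKM in ZM447439 4N and 2.31, 2.42 and 2.65 RPKM in untreated 2N libraries (-1.50, SE 0.08). Its kinase CDK2 had 4.48, 3.42 and 3.19 RPKM in ZM447439 4N and 12.1, 11.9 and 10.6 RPKM in untreated 2N libraries (-1.53, SE 0.16, adjusted p = 4.6e-06). The groups did not overlap for any of these. CCNE1, the cyclin E1 gene, was below the filter and was not tested at this scale. Its levels were 0.267, 0.253 and 0.240 RPKM in ZM447439 4N and 0.908, 0.936 and 1.16 RPKM in untreated 2N libraries, again without overlap.

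Fork proteins and enzymes of nucleotide supply were among the other members of the list. PCNA, the sliding clamp of the polymerases, had 10.3, 7.96 and 7.48 RPKM in ZM447439 4N and 18.4, 19.5 and 18.2 RPKM in untreated 2N libraries (-1.09, SE 0.19, adjusted p = 0.000298). RRM2, the regulated subunit of ribonucleotide reductase, had 12.4, 10.7 and 10.4 RPKM in ZM447439 4N and 33.6, 37.2 and 30 RPKM in untreated 2N libraries (-1.55, SE 0.20). The flap nuclease FEN1 was lower by -1.57, thymidylate synthase by -1.06 (TYMS) and the chromatin assembly subunit CHAF1A by -1.24. Small falls were those of the repressor E2F7 (-0.37) and the checkpoint kinase CHEK1 (-0.55). These genes averaged 0.714 and 0.606 RPKM over the 18 libraries, near the pseudocount, which understates differences at such levels. UNG, which removes uracil from DNA, had 1.70, 1.71 and 1.65 RPKM in ZM447439 4N and 5.13, 5.16 and 5.77 RPKM in untreated 2N libraries (-1.42, SE 0.09).

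Other protein-coding genes among the 12 largest falls were FAM111B, CDCA7, PAQR4, PKMYT1 and TCF19. FAM111B, which encodes a protease linked to replication, had 0.560, 0.520 and 0.475 RPKM in ZM447439 4N and 2.89, 3.10 and 3.35 RPKM in untreated 2N libraries (-1.82, SE 0.05, adjusted p = 3.38e-11). CDCA7, a chromatin protein needed for maintenance of DNA methylation, had 0.497, 0.661 and 0.589 RPKM in ZM447439 4N and 3.33, 3.28 and 3.30 RPKM in untreated 2N libraries (-1.81, SE 0.08). PAQR4 (-1.75) and PKMYT1 (-1.67), whose product holds CDK1 inactive before mitosis, share exon positions. In GENCODE 29 41.5% of the exon bases of PAQR4 lie in exons of PKMYT1, and the libraries mark no strand, so their values are not separate evidence.

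The genes of G2 and mitosis were lower in ZM447439 4N cells as well, although these cells hold the DNA content of G2. Of 65 tested members 52 were lower (27.3% of all genes were) and 0 higher, with a median of -0.65, and 13 did not pass. With RPM 51 of 71 members were lower and 0 higher (median -0.89), and without both libraries that stood apart 55 of 65 were lower. The summed level of the list was 155.7 to 194.1 RPKM in ZM447439 4N libraries, against 267.8 to 356.7 RPKM in untreated 2N libraries.

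KIF20A, a kinesin of the central spindle, had 5.19, 8.95 and 9.87 RPKM in ZM447439 4N and 22.8, 21.4 and 18.3 RPKM in untreated 2N libraries (log2 difference -1.37, SE 0.28, adjusted p = 0.00132). CDC20, which activates the ubiquitin ligase of anaphase onset, had 8.66, 13.9 and 14.5 RPKM in ZM447439 4N and 34.9, 35.01 and 25.9 RPKM in untreated 2N libraries (-1.36, SE 0.28, adjusted p = 0.00113). In both, ZM447439 4N replicate 1 was the lowest library and untreated 2N replicate 3 the lowest of its group. MYBL2, which encodes B-MYB, had 0.725, 0.593 and 0.630 RPKM in ZM447439 4N and 2.29, 2.37 and 2.09 RPKM in untreated 2N libraries (-1.26, SE 0.09, adjusted p = 1.21e-07). CCNB1, the cyclin B1 gene, had 3.10, 4.94 and 5.06 RPKM in ZM447439 4N and 10.98, 10.7 and 8.71 RPKM in untreated 2N libraries (-1.15, SE 0.23, adjusted p = 0.000884). MKI67, which encodes the proliferation marker Ki-67, had 5.43, 5.57 and 6.56 RPKM in ZM447439 4N and 15.6, 15.3 and 8.92 RPKM in untreated 2N libraries (-1.08, SE 0.24, adjusted p = 0.0023). None of these groups overlapped, and the gap for MKI67 was narrowed by untreated 2N replicate 3 alone.

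PLK1, a kinase of mitotic entry, had 3.04, 4.77 and 4.82 RPKM in ZM447439 4N and 10.0, 9.70 and 7.14 RPKM in untreated 2N libraries (-1.02, SE 0.25, adjusted p = 0.00392). The Aurora B gene AURKB, which encodes a target of the drug, had 3.55, 2.90 and 3.03 RPKM in ZM447439 4N and 6.23, 6.48 and 4.06 RPKM in untreated 2N libraries (-0.71, SE 0.17, adjusted p = 0.00425). The Aurora A gene AURKA had 1.04, 1.46 and 1.45 RPKM in ZM447439 4N and 2.48, 2.57 and 1.49 RPKM in untreated 2N libraries (-0.54, SE 0.19, adjusted p = 0.0321). AURKA did not pass without ZM447439 4N replicate 1, untreated 2N replicate 1 or untreated 2N replicate 2 (adjusted p = 0.121, 0.117 and 0.128). Its call was also lost with a pseudocount of 0.1, no filter, RPM or only the compared libraries (limma, adjusted p = 0.077, 0.0777, 0.0834 and 0.0672). FOXM1, the transcription factor of this programme, was lower by 0.63 (log2 difference -0.63, SE 0.17, adjusted p = 0.00832), but without both libraries that stood apart it did not pass (adjusted p = 0.0585).

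A few genes of the G2/M list had like levels in the groups. TOP2A, the topoisomerase that untangles sister chromatids, had 7.05, 7.84 and 8.24 RPKM in ZM447439 4N and 8.09, 8.67 and 6.34 RPKM in untreated 2N libraries (log2 difference 0.01, SE 0.18, adjusted p = 0.97). UBE2C, which supplies ubiquitin for the anaphase-promoting complex, had 5.93, 6.31 and 6.87 RPKM in ZM447439 4N and 6.66, 7.28 and 3.45 RPKM in untreated 2N libraries (0.18, SE 0.28, adjusted p = 0.62). CDK1, the mitotic kinase, had 2.37, 1.94 and 1.91 RPKM in ZM447439 4N and 2.37, 2.97 and 1.66 RPKM in untreated 2N libraries (-0.12, SE 0.25, adjusted p = 0.737). The libraries of the groups overlapped for all 3, and their sign against untreated 2N cells turned when single libraries were left out. In untreated cells the same genes were among those that differed most between the sorts, at 2.40 for TOP2A, 2.99 for UBE2C and 2.36 for CDK1 (untreated 4N minus untreated 2N). The other members that did not pass were CKAP2, TROAP, CKS2, HJURP, TTK, FAM83D, INCENP, CCNF, CENPA and PIF1, between -0.37 and 0.20.

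The promoters of the cell-cycle genes are shown because the members moved together. The windows run from 250 bases before to 50 bases after the gene start in RefSeq, build GRCh38.p14. In the mitotic genes, capitals mark the CHR element TTTGAA, which MuvB binds, and the CCAAT box, each on either strand, and in the replication genes they mark the E2F letters TTTCCCGC or TTTGGCGC. The CDC20 window lies at chr1:43358731-43359030 on the plus strand, PRC1 at chr15:90994486-90994785 and MKI67 at chr10:128126374-128126673 on the minus strand, and CCNB1 at chr5:69166900-69167199 on the plus strand. The CDC6 window lies at chr17:40287629-40287928 on the plus strand and the E2F1 window at chr20:33686336-33686635 on the minus strand, and the replication genes shown were chosen after their values were seen.
CDC20: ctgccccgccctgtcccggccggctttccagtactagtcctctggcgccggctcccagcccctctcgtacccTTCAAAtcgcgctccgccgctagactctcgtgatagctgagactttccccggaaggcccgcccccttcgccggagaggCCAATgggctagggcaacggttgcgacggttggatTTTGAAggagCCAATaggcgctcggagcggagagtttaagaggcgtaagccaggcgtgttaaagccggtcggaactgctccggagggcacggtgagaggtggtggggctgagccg
PRC1: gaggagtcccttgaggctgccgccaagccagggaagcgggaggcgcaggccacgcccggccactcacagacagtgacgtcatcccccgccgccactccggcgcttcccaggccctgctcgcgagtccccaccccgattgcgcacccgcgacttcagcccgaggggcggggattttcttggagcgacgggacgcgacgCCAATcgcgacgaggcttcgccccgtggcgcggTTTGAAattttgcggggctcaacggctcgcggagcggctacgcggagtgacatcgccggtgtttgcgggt
MKI67: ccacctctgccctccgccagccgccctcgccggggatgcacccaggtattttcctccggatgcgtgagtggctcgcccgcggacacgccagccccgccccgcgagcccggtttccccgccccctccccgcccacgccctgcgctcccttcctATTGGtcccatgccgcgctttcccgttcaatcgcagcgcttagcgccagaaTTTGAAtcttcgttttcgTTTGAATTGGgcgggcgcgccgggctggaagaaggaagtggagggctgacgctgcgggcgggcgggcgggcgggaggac
CCNB1: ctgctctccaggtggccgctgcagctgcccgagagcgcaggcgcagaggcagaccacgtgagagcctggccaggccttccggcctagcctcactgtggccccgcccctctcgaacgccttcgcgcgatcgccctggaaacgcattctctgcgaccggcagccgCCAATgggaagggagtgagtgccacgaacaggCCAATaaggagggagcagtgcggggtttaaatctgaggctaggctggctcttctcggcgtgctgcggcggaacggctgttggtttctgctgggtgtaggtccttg
CDC6: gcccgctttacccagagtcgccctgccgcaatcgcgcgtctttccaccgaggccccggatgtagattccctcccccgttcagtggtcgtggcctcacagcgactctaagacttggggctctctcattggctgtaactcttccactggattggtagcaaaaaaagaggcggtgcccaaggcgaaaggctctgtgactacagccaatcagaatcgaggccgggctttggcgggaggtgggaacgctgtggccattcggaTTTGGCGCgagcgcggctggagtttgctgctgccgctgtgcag
E2F1: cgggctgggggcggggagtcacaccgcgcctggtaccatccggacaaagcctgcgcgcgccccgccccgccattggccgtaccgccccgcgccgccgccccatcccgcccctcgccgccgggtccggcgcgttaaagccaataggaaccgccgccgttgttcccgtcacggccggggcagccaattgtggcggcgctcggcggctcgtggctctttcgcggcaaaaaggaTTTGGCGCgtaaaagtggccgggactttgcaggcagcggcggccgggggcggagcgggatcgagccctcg
CDC20 and MKI67 hold 2 CHR elements and 2 CCAAT boxes, PRC1, a microtubule bundler of the central spindle, holds 1 of each, and CCNB1 holds 2 CCAAT boxes and no CHR letters in this window. In MKI67 a CHR element and a reversed CCAAT box share 1 base. The windows of KIF20A and MYBL2, also among the largest falls of the G2/M list, are not shown. KIF20A holds 2 CCAAT boxes and no CHR letters, and MYBL2 holds neither.

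Over the lists, TTTGAA stood in 37 of 55 matched promoters of G2/M genes (67.3%), 1 of 32 of G1/S genes (3.12%) and 1 of 24 of p53 targets (4.17%), against 15.4% of 27305 RefSeq promoters. CCAAT stood in 76.4% of the G2/M promoters and 56.2% of the G1/S promoters, against 35.7% of all promoters. The E2F letters stood in 12 of 32 G1/S promoters (37.5%) and 1 of 55 G2/M promoters (1.82%), against 2.31% of all promoters. A match is a description of the letters and was not tied to binding or to the measured levels.

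**Figure D2:**
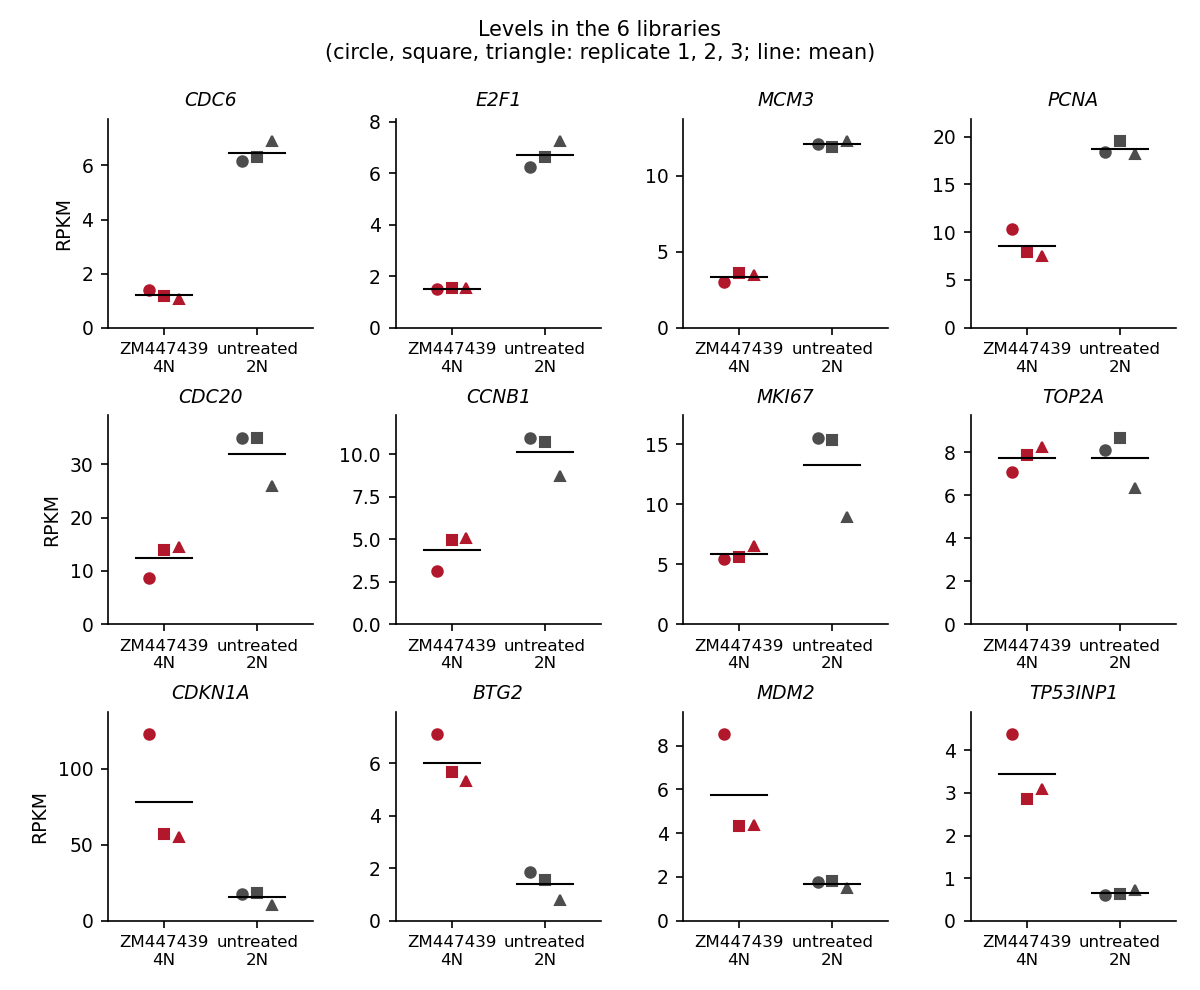
Levels in RPKM (linear axes from 0) of 4 replication genes (top), 4 mitotic genes (middle) and 4 p53 targets (bottom) in the 3 ZM447439 4N libraries (left, red) and the 3 untreated 2N libraries (right, grey), with the mean as a line. In 11 of the 12 panels the groups do not overlap, and TOP2A overlaps. The circle of ZM447439 4N replicate 1 is the highest for the 4 p53 targets and the lowest of the 6 libraries for CDC20, CCNB1 and MKI67.

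Other groups show where these levels stand. All comparisons with untreated 2N cells share its 3 libraries, so their values are given side by side only. Of all genes 56% differed from untreated 2N cells in ZM447439 2N and 66.6% in cytochalasin D 4N cells. The median of the 65 G2/M genes relative to untreated 2N cells was -0.65 in ZM447439 4N, -1.33 in ZM447439 2N, -1.26 in cytochalasin D 4N and 1.44 in untreated 4N cells. In a direct test, ZM447439 4N cells had higher levels than ZM447439 2N cells in 52 of the 65 genes (median 0.69), where 5.21% of all genes were higher. KIF20A was higher by 2.11 (SE 0.28, adjusted p = 0.00181), CDC20 by 1.74, PLK1 by 1.72 and CCNB1 by 1.504 (ZM447439 4N minus ZM447439 2N). ZM447439 4N cells were also higher than cytochalasin D 4N cells in 57 of the 65 (median 0.63), where 27.8% of all genes were. The count for the sorts of drug-treated cells depended on the libraries: over all genes 998 passed (7.66%). Leaving out ZM447439 2N replicate 1 gave 2722, each of the other libraries of that pair except ZM447439 4N replicate 1 gave 208 to 247, and 0 passed in a fit of those 6 libraries alone (limma, 2162 at an unadjusted p under 0.05). These fits treated the sorts as unpaired. With a block for the replicate number 1465 passed, and whether that number pairs the sorts was not checked.

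The G1/S genes stood otherwise. Their median relative to untreated 2N cells was -1.11 in ZM447439 4N, -1.29 in ZM447439 2N, -1.85 in cytochalasin D 4N and -0.02 in untreated 4N cells. Between ZM447439 4N and ZM447439 2N cells 6 of 40 members were higher and 3 lower (2.45% of all genes were), with a median of 0.03. The 3 lower members were CDC6 (-0.37), FAM111B (-0.47) and CCNE2 (-0.40), and the higher ones included thymidine kinase 1 (TK1, 1.07) and TYMS (0.79). Against cytochalasin D 4N cells 39 of 40 members were higher in ZM447439 4N cells (median 0.73), such as RRM2 by 1.77 (SE 0.20, adjusted p = 1.34e-05) and MCM4 by 1.45. In untreated cells 3 members were higher and 16 lower in 4N than in 2N cells, where 12.9% of all genes were higher and 4.55% lower. UNG differed by -1.75 and CCNE2 by -1.41 (untreated 4N minus untreated 2N).

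**Figure D3:**
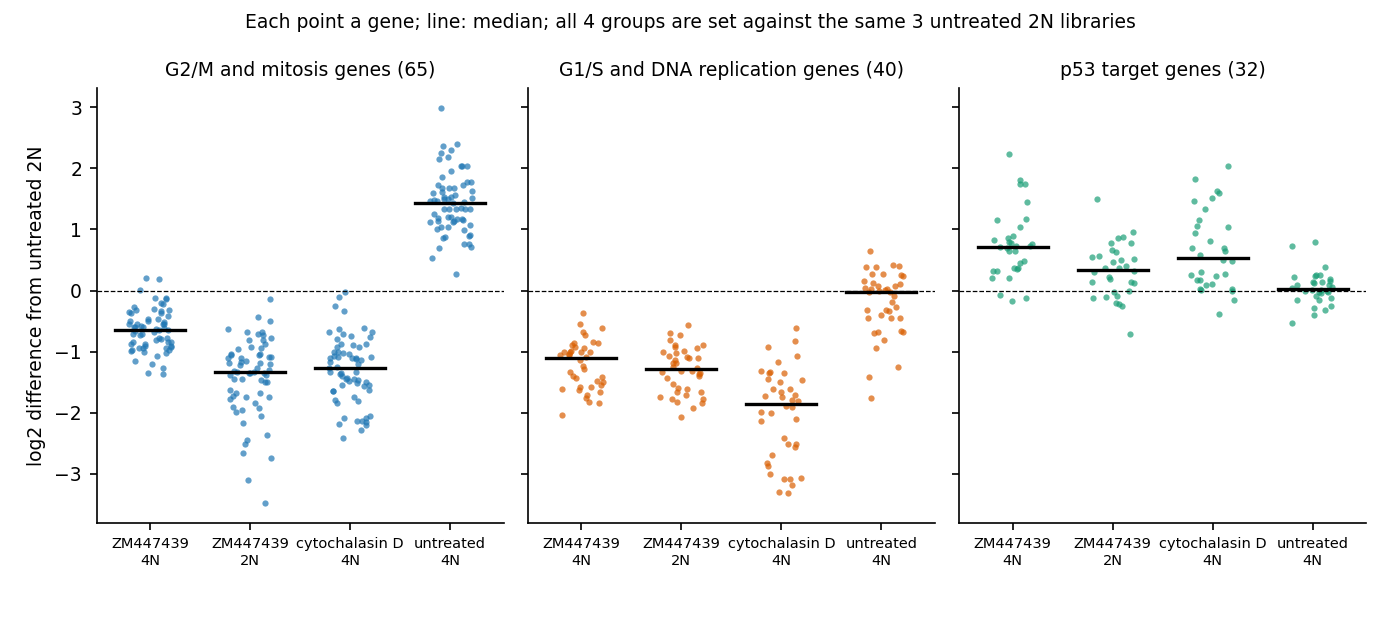
Each point is a gene of the G2/M, G1/S or p53 target list, and its height is the log2 difference of a group from untreated 2N cells, with the list's median as a line. For G2/M genes the median is -0.65 in ZM447439 4N, between -1.33 in ZM447439 2N and 1.44 in untreated 4N cells, and for p53 targets it is 0.72 in ZM447439 4N and 0.03 in untreated 4N cells. The 4 groups share the same 3 untreated 2N libraries.

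The p53 target genes were mostly higher in ZM447439 4N cells. Of 32 tested members 22 were higher (18% of all genes were) and 0 lower, with a median of 0.72. In 28 every ZM447439 4N library lay above every untreated 2N library, where 24.4% of all genes did so. With RPM 32 of 50 members were higher and 1 lower (median 0.78). The count was 16 to 21 when single libraries were left out and 12, with 1 lower, without both libraries that stood apart.

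CDKN1A, which encodes the CDK inhibitor p21, had 122.6, 56.8 and 54.9 RPKM in ZM447439 4N and 17.8, 18.4 and 10.5 RPKM in untreated 2N libraries. ZM447439 4N replicate 1 was the highest library, far above the others of its group, untreated 2N replicate 3 was the lowest, and the groups did not overlap. The log2 difference was 2.23 (SE 0.55, adjusted p = 0.00411), the largest rise among protein-coding genes named by the rule, and the ratio of the means was 5.03. Without both libraries that stood apart CDKN1A did not pass (adjusted p = 0.0675). MDM2, which encodes the ubiquitin ligase of p53, had 8.52, 4.32 and 4.39 RPKM in ZM447439 4N and 1.78, 1.804 and 1.49 RPKM in untreated 2N libraries (1.45, SE 0.38, adjusted p = 0.00667), and likewise did not pass without those libraries (adjusted p = 0.0785).

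Other p53 targets passed in every setting tried. TP53INP1, a stress protein of autophagy and cell death, had 4.38, 2.86 and 3.08 RPKM in ZM447439 4N and 0.609, 0.634 and 0.730 RPKM in untreated 2N libraries (1.75, SE 0.11, adjusted p = 4.29e-08). BTG2, an antiproliferative factor, had 7.10, 5.66 and 5.30 RPKM in ZM447439 4N and 1.86, 1.54 and 0.797 RPKM in untreated 2N libraries (1.81, SE 0.41, adjusted p = 0.00256). FDXR, a mitochondrial ferredoxin reductase, had 7.55, 3.73 and 3.53 RPKM in ZM447439 4N and 0.995, 1.06 and 1.06 RPKM in untreated 2N libraries (1.75, SE 0.39, adjusted p = 0.00223). In all 3 genes ZM447439 4N replicate 1 was the highest library. Other members that rose included the RNA-binding regulator ZMAT3 (1.17), the cell death gene BBC3, which encodes PUMA (1.15), the cyclin G1 gene CCNG1 (0.83), the damage sensor XPC (0.73) and PERP (0.20).

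The 10 members that did not pass included genes of cell death and of growth arrest. BAX averaged 14.9 RPKM in ZM447439 4N and 10.4 RPKM in untreated 2N cells (0.49, SE 0.21, adjusted p = 0.0778), and the death receptor gene FAS differed by 0.72 (SE 0.39, adjusted p = 0.149). GADD45A averaged 17.6 RPKM in ZM447439 4N and 17.4 RPKM in untreated 2N cells (-0.08, SE 0.63). GDF15, a secreted p53 target, was below the filter, at no more than 0.0759 RPKM in ZM447439 4N and 0.0157 RPKM in untreated 2N libraries.

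Directly tested against ZM447439 2N cells, 2 of 32 p53 targets were higher in ZM447439 4N cells and 1 lower (median 0.39), near the shares over all genes (5.21% and 2.45%). CDKN1A differed by 1.26 (SE 0.55, adjusted p = 0.172) and MDM2 by 1.08 (SE 0.38, adjusted p = 0.0976). Against cytochalasin D 4N cells 3 were higher and 1 lower (median 0.17), smaller shares than over all genes (27.8% and 15.7%), and CDKN1A differed by 0.19 (SE 0.55) and BTG2 by -0.01 (SE 0.41). Relative to untreated 2N cells 22 members were higher in ZM447439 4N, 10 in ZM447439 2N (23.6% of all genes were) and 16 in cytochalasin D 4N cells (26.4%). No member was lower in cytochalasin D 4N cells, where 40.2% of all genes were, and 1 was lower in ZM447439 2N cells (32.5%).

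**Figure D4:**
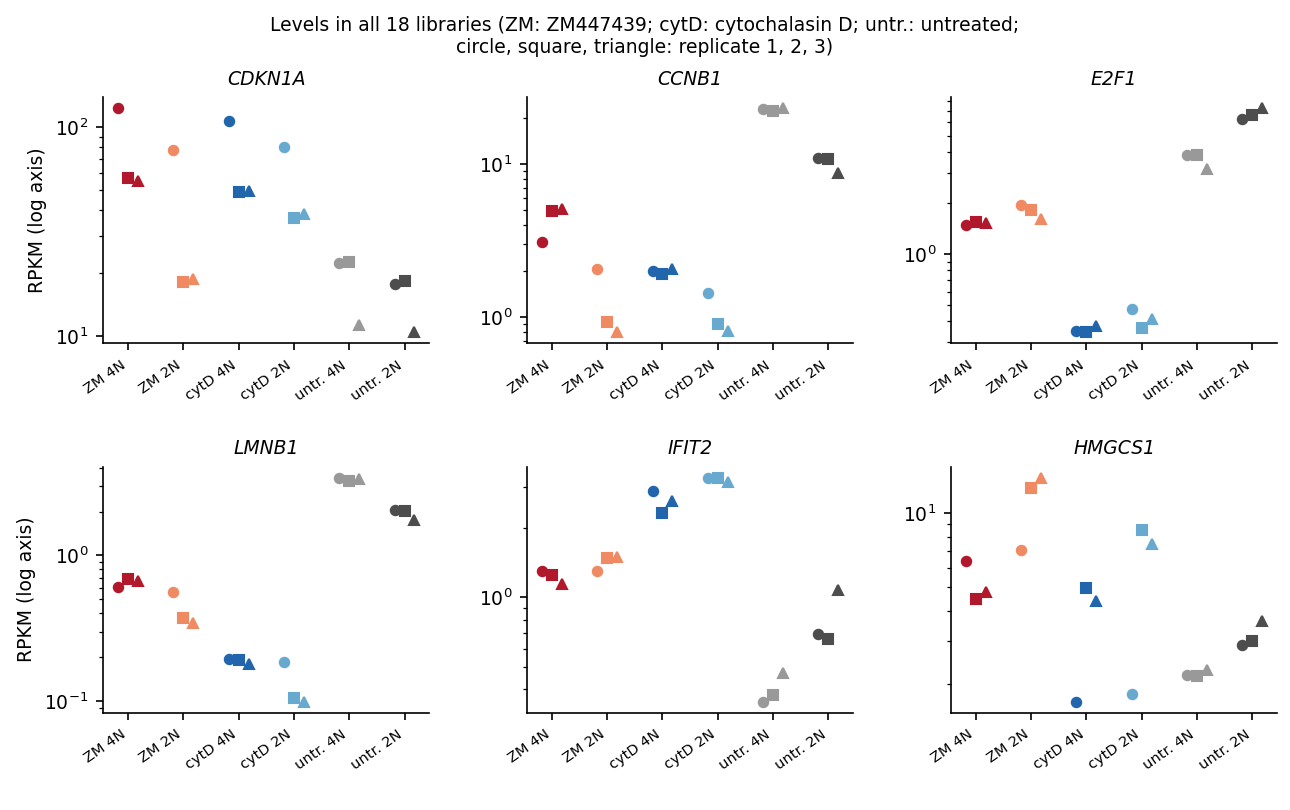
RPKM on a log axis in all 18 libraries, by group, for CDKN1A, CCNB1, E2F1, LMNB1, IFIT2 and HMGCS1, with circle, square and triangle for replicates 1, 2 and 3. E2F1 and LMNB1 are lower in every drug-treated library than in every untreated one. IFIT2 stands above ZM447439 4N in the cytochalasin D libraries, and CDKN1A is highest in replicate 1 of each drug-treated group.

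Among G1 cyclins, CDKs, CDK inhibitors and pocket proteins 3 of 12 were higher and 3 lower, near the shares over all genes (18% higher and 27.3% lower). CDKN1A and CDK2 are given above. RBL2, which encodes the pocket protein p130, rose by 0.22 (SE 0.04, adjusted p = 0.000336), with 0.869, 0.925 and 0.907 RPKM in ZM447439 4N and 0.712, 0.654 and 0.734 RPKM in untreated 2N libraries. CDKN1B, the p27 gene, was higher by 0.43 (SE 0.12, adjusted p = 0.0114) but did not pass without ZM447439 4N replicate 2 (0.0526) or untreated 2N replicate 1 (0.0551). The CDK4 and CDK6 inhibitor gene CDKN2C fell (-0.35, SE 0.09), as did E2F4, a partner of p130 (-0.36, SE 0.05). CCND1, the cyclin D1 gene, had 55.9, 35.4 and 34.4 RPKM in ZM447439 4N and 65.2, 61.6 and 55.6 RPKM in untreated 2N libraries (-0.57, SE 0.26, adjusted p = 0.0932). ZM447439 4N replicate 1 reached into the range of the untreated libraries. CDKN1C, the p57 gene, was 0.373, 0.585 and 0.669 RPKM in ZM447439 4N and 0.244, 0.256 and 0.213 RPKM in untreated 2N libraries (0.49, SE 0.22, adjusted p = 0.0794).

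Centrosome genes and the PIDDosome, a complex that senses extra centrosomes and activates caspase-2, had low RPKM, and 13 of 20 members were below the filter. These RPKM are divided by the span with introns, and all 20 members passed the filter with RPM. Of the 7 tested on the RPKM scale 5 were lower and 1 higher (27.3% and 18% of all genes). On the RPM scale 14 of 20 fell, where 24.4% of all genes did, and 1 rose. CASP2, the caspase of the complex, had 0.959, 0.956 and 0.965 RPKM in ZM447439 4N and 2.48, 2.27 and 2.20 RPKM in untreated 2N libraries (-0.95, SE 0.05, adjusted p = 1.35e-08). PLK4, the kinase of centriole duplication, had 0.702, 0.519 and 0.519 RPKM in ZM447439 4N and 1.55, 1.54 and 1.26 RPKM in untreated 2N libraries (-0.85, SE 0.12). PIDD1, the scaffold of the PIDDosome, differed by -0.13 (SE 0.07, adjusted p = 0.137), and the groups overlapped.

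Of 18 nuclear lamina and chromatin genes 13 were lower and 0 higher (median -0.41), where 27.3% of all genes were lower, and the count was 13 in each fit with a library left out. LMNB1, which encodes lamin B1, had 0.605, 0.687 and 0.670 RPKM in ZM447439 4N and 2.05, 2.03 and 1.74 RPKM in untreated 2N libraries (-1.08, SE 0.08, adjusted p = 1.6e-07). LMNB2, which encodes lamin B2, had 3.13, 3.58 and 3.40 RPKM in ZM447439 4N and 9.01, 8.94 and 7.65 RPKM in untreated 2N libraries (-1.22, SE 0.12). The lamina-associated gene TMPO was lower by -1.04 and the lamin B receptor gene LBR by -0.73, while the A-type lamin gene LMNA did not pass (-0.34). H2AZ1, a histone variant, had 69.2, 101.1 and 97.9 RPKM in ZM447439 4N and 175.0, 178.8 and 195.0 RPKM in untreated 2N libraries (-1.05, SE 0.19, adjusted p = 0.000489).

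Replication-dependent histone genes were measured only as polyadenylated transcripts, of which 5 of 8 were higher and 0 lower (18% of all genes were higher and 27.3% lower). The count was 1 without ZM447439 4N replicate 1, where the share over all genes was not determined. It was 1 to 4 over the fits with single libraries left out. The linker histone gene H1-2 had 11.5, 10.7 and 8.79 RPKM in ZM447439 4N and 4.92, 6.599 and 5.97 RPKM in untreated 2N libraries (0.78, SE 0.19, adjusted p = 0.00427), and passed in each of these fits.

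Nucleolar and ribosome biogenesis genes were lower in 29 of 30 members (27.3% of all genes were), with 0 higher and a median of -0.52. With RPM 33 of 35 were lower. MRTO4, a factor of the large subunit, had 3.30, 3.76 and 3.51 RPKM in ZM447439 4N and 8.90, 8.67 and 8.33 RPKM in untreated 2N libraries (-1.18, SE 0.08, adjusted p = 1.02e-07). NOLC1, a chaperone of small nucleolar ribonucleoproteins, had 9.37, 10.5 and 10.2 RPKM in ZM447439 4N and 22.2, 21.3 and 20.8 RPKM in untreated 2N libraries (-1.06, SE 0.12). The dyskerin gene DKC1 was lower by -0.93 and nucleolin by -0.71 (NCL). Cytosolic ribosomal protein genes moved far less: 19 of 70 were lower, near the 27.3% of all genes, with a median of -0.09. After quantile normalization 4 were higher and 3 lower (median 0.00).

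Of 26 heat shock and chaperonin genes 20 were lower and 0 higher (median -0.51), where 27.3% of all genes were lower. All 8 subunits of the CCT chaperonin, which folds actin and tubulin, fell, from -0.86 for CCT5 to -0.28 for CCT7. CCT5 had 9.79, 10.9 and 10.6 RPKM in ZM447439 4N and 19.9, 19.6 and 18.4 RPKM in untreated 2N libraries (SE 0.10, adjusted p = 1.01e-05). Its exons are shared in part with another tested gene (30.1% of their bases), and the processed pseudogenes CCT5P1 (-0.67) and CCT5P2 (-0.68) could take some of its reads. HSPA8, the constitutive HSP70 chaperone, had 185.1, 139.8 and 138.7 RPKM in ZM447439 4N and 313.9, 301.2 and 235.5 RPKM in untreated 2N libraries (-0.88, SE 0.13). The stress-inducible HSPA1A differed by -1.62 without passing. Of 32 proteasome subunit genes 20 were lower and 0 higher (median -0.16; 27.3% of all genes were lower), led by the ATPase subunit PSMC3 (-0.54, SE 0.06). After quantile normalization 3 were higher and 14 lower, where 22.3% of all genes were higher and 22.4% lower.

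Of the substrates of CCT, the alpha-tubulin gene TUBA1B had 261.0, 234.7 and 232.1 RPKM in ZM447439 4N and 511.3, 508.9 and 519.9 RPKM in untreated 2N libraries (-1.08, SE 0.23, adjusted p = 0.00168). It shares exons with TUBA1B-AS1, and the counting could also split reads with the processed pseudogene TUBAP2 (-1.08). Against cytochalasin D 4N cells TUBA1B was higher in ZM447439 4N cells by 2.12 (SE 0.23, adjusted p = 9.74e-06). Beta-actin had 142.5, 106.3 and 104.9 RPKM in ZM447439 4N and 189.1, 190.0 and 165.6 RPKM in untreated 2N libraries (ACTB, -0.63, SE 0.10, adjusted p = 0.000155). Gamma-actin had 362.0, 318.3 and 311.7 RPKM in ZM447439 4N and 431.3, 432.2 and 400.1 RPKM in untreated 2N libraries (ACTG1, -0.35, SE 0.06).

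Of 44 SRF-MRTF targets and actin cytoskeleton genes 18 were lower and 3 higher (median -0.20), where 27.3% of all genes were lower and 18% higher. The lower members numbered 12 without ZM447439 4N replicate 2, where the share over all genes was not determined. They numbered up to 22 with another library left out. Profilin, which delivers actin monomers, was lower by -0.48 (PFN1, SE 0.06), and tropomyosin 3 by -0.72 (TPM3, SE 0.07). The focal adhesion gene TRIP6 rose by 0.31 (SE 0.07). Of 27 YAP-TEAD target and Hippo genes 6 were lower and 4 higher, no larger shares than over all genes (27.3% and 18%). The counts were 3 and 2 in the fits with the fewest of each, on leaving out untreated 2N replicate 2 and ZM447439 4N replicate 1 in turn. FJX1, a YAP target, had 4.74, 5.55 and 5.14 RPKM in ZM447439 4N and 10.8, 11.1 and 10.5 RPKM in untreated 2N libraries (-1.0, SE 0.10). The classical YAP target CCN1 had 174.7, 70.4 and 66.8 RPKM in ZM447439 4N and 155.3, 162.8 and 164.3 RPKM in untreated 2N libraries (-0.78, SE 0.40, adjusted p = 0.135). Its ZM447439 4N replicate 1 lay above every untreated library and the others far below them. The Hippo kinase LATS2, below the filter, had 0.446, 0.342 and 0.315 RPKM in ZM447439 4N and 0.361, 0.343 and 0.320 RPKM in untreated 2N libraries.

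**Figure D5:**
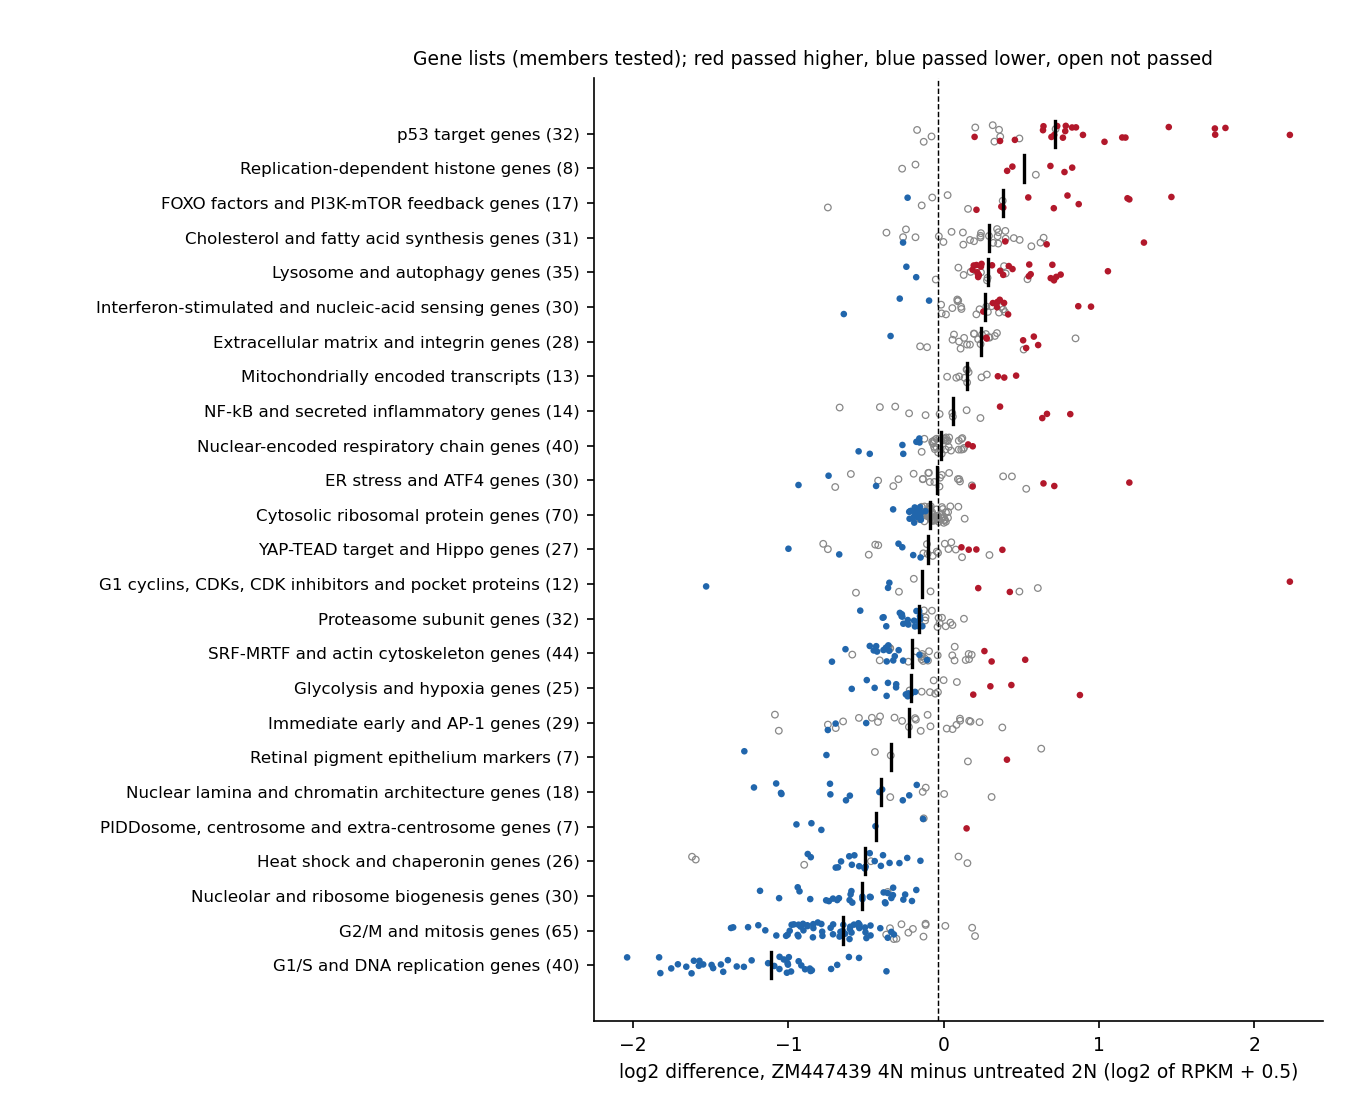
Log2 difference (ZM447439 4N minus untreated 2N) of each tested gene of 25 lists, with the list's median as a black line, red for genes that passed as higher, blue for lower and open for not passed, and the median of all genes (-0.04) as a dashed line. The lists run from the p53 targets (median 0.72) at the top to the G1/S genes (median -1.11) at the bottom.

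Lysosome and autophagy genes were higher in 23 of 35 members and lower in 2 (median 0.28), where 18% of all genes were higher and 27.3% lower, with 18 to 26 higher when single libraries were left out. GABARAPL1, an ATG8-family protein of autophagosomes, had 3.07, 2.55 and 2.55 RPKM in ZM447439 4N and 1.07, 1.05 and 1.01 RPKM in untreated 2N libraries (1.06, SE 0.12, adjusted p = 8.17e-06). The peptidase gene TPP1 was higher by 0.69, the autophagy receptor NBR1 by 0.71 and cathepsin D by 0.56 (CTSD). The hydrolases GLA (-0.24) and GUSB (-0.18) were the lower members, and GUSB did not pass without both libraries that stood apart (adjusted p = 0.103).

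Of 17 FOXO and PI3K-mTOR feedback genes 10 were higher and 1 lower (median 0.38), where 18% of all genes were higher and 27.3% lower. PIK3IP1, an inhibitor of PI3 kinase, had 3.32, 2.41 and 2.69 RPKM in ZM447439 4N and 0.642, 0.599 and 0.840 RPKM in untreated 2N libraries (1.47, SE 0.14, adjusted p = 2.29e-06). DDIT4, which encodes the mTOR inhibitor REDD1, had 26.3, 33.9 and 35.7 RPKM in ZM447439 4N and 13.8, 14.6 and 12.3 RPKM in untreated 2N libraries (1.20, SE 0.26, adjusted p = 0.00167). Its exons share 41.2% of their bases with DDIT4-AS1, and the libraries cannot tell the strands apart. The factor FOXO4 was higher by 0.87. PIK3IP1 was lower in ZM447439 4N than in ZM447439 2N cells by -0.67 (SE 0.14, adjusted p = 0.0141).

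Further genes among the 12 largest rises were RRAD, IFITM10, PBXIP1, YPEL3, TM7SF2 and ORAI3. The GTPase gene RRAD had 3.44, 4.14 and 4.00 RPKM in ZM447439 4N and 0.802, 0.937 and 0.814 RPKM in untreated 2N libraries (1.69, SE 0.16, adjusted p = 2.33e-06). PBXIP1, which binds PBX homeodomain factors, had 8.89, 7.08 and 7.07 RPKM in ZM447439 4N and 2.43, 2.48 and 2.92 RPKM in untreated 2N libraries (1.39, SE 0.13). YPEL3 had 6.10, 5.64 and 6.08 RPKM in ZM447439 4N and 1.70, 1.77 and 2.61 RPKM in untreated 2N libraries (1.37, SE 0.13). The groups were far apart in all 3. IFITM10 (1.40) and ORAI3 (1.28), a calcium channel gene, share 22.2% and 52.9% of their exon bases with another tested gene, and their own level is uncertain.

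Of 30 interferon-stimulated and nucleic-acid sensing genes 9 were higher and 3 lower (median 0.27), where 18% of all genes were higher and 27.3% lower, and 18 did not pass. Without ZM447439 4N replicate 1 the count was 5 higher. Whether that exceeded the share over all genes in the same fit was not tested. STAT2, a subunit of the interferon response factor, had 6.32, 6.50 and 6.89 RPKM in ZM447439 4N and 2.97, 2.98 and 3.56 RPKM in untreated 2N libraries (0.95, SE 0.11, adjusted p = 1.53e-05). IRF9, its DNA-binding partner, rose by 0.87 (SE 0.13), but 48.4% of its exon bases are shared with another tested gene. OAS3, which makes the activator of RNase L, had 0.469, 0.581 and 0.620 RPKM in ZM447439 4N and 1.10, 1.15 and 1.20 RPKM in untreated 2N libraries (-0.64, SE 0.08). Set against cytochalasin D 4N cells, 27 of 30 members were lower in ZM447439 4N cells (median -0.64), where 15.7% of all genes were, and IFIT2 was lower by -0.84 (SE 0.10, adjusted p = 1.94e-05).

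Of 14 NF-kB and secreted inflammatory genes 4 were higher and 0 lower (18% of all genes were higher and 27.3% lower). Without both libraries that stood apart 1 was higher, a smaller share than the 16.9% of all genes. CCL2, a monocyte chemokine, had 19.7, 23.8 and 24.0 RPKM in ZM447439 4N and 13.4, 13.8 and 15.6 RPKM in untreated 2N libraries (0.64, SE 0.15, adjusted p = 0.00309). IL6 (0.06) and CXCL8 (-0.31), classical secreted factors of senescent cells, did not pass. Of 29 immediate early and AP-1 genes 3 were lower and 0 higher, smaller shares than over all genes (27.3% and 18%), and FOSL1, an AP-1 subunit, was the member that passed in every setting (-0.70, SE 0.17, adjusted p = 0.0048). MYC had 13.1, 8.65 and 8.88 RPKM in ZM447439 4N and 19.6, 17.5 and 14.7 RPKM in untreated 2N libraries (-0.75, SE 0.29, adjusted p = 0.0461). It did not pass in 4 of the 6 fits with a library left out, where adjusted p reached 0.134.

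Of 25 glycolysis and hypoxia genes 13 were lower and 4 higher, where 27.3% of all genes were lower and 18% higher. The glycolytic enzymes enolase 1 (ENO1, -0.59, SE 0.11) and hexokinase 2 (HK2, -0.44, SE 0.08) fell, while VEGFA, an angiogenic factor, had 30.5, 31.7 and 30.5 RPKM in ZM447439 4N and 15.7, 14.5 and 20.1 RPKM in untreated 2N libraries (0.88, SE 0.14, adjusted p = 0.000191). Of 31 cholesterol and fatty acid synthesis genes 3 were higher and 1 lower (median 0.29), smaller shares than over all genes (18% and 27.3%). In a fit of the 6 libraries alone 13 were higher and 3 lower, where 5875 of the 13037 genes tested passed in either direction. The sterol reductase gene TM7SF2 had 6.68, 5.02 and 5.42 RPKM in ZM447439 4N and 1.58, 1.79 and 2.87 RPKM in untreated 2N libraries (1.29, SE 0.25, adjusted p = 0.000764). HMGCS1, an early enzyme of the pathway, had 6.40, 4.46 and 4.76 RPKM in ZM447439 4N and 2.90, 3.00 and 3.64 RPKM in untreated 2N libraries, and did not pass (0.62, SE 0.44, adjusted p = 0.267).

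Of 30 ER stress and ATF4 genes 4 were higher and 3 lower, smaller shares than over all genes (18% and 27.3%). The mitochondrial folate enzyme MTHFD2 fell by -0.74 (SE 0.14, adjusted p = 0.000602). Among 40 nuclear-encoded respiratory chain genes 2 were higher and 7 lower, also smaller shares than over all genes, with cytochrome c at -0.55 (CYCS, SE 0.09). After quantile normalization 11 were higher and 4 lower (22.3% and 22.4% of all genes). Of 13 mitochondrially encoded transcripts 3 were higher, near the 18% of all genes, and 0 lower, where 27.3% of all genes were lower. None of these transcripts passed after quantile normalization. Of 28 extracellular matrix and integrin genes 6 were higher and 1 lower (median 0.24), and 4 were higher without ZM447439 4N replicate 1. In the main fit the share of higher members was near the 18% of all genes, and that of lower members was below the 27.3%. In 13 members every ZM447439 4N library lay above every untreated 2N library, and in 1 below (24.4% and 33.6% of all genes). The membrane-bound protease MMP14 had 112.6, 94.0 and 94.4 RPKM in ZM447439 4N and 65.8, 65.9 and 68.4 RPKM in untreated 2N libraries (0.58, SE 0.07, adjusted p = 2.05e-05). The integrin gene ITGA10 was higher by 0.61 (SE 0.10) than in untreated 2N cells and lower by -2.40 (SE 0.10, adjusted p = 3.69e-09) than in cytochalasin D 4N cells. Of the 7 tested retinal pigment epithelium markers 1 was higher and 2 lower, near the shares over all genes (18% and 27.3%). RDH5, a retinol dehydrogenase gene that shares 68.2% of its exon bases with another tested gene, was higher by 0.41, and the melanosome gene PMEL (-1.28) and the membrane linker gene EZR (-0.76) were lower. PMEL shares 2.28% of its exon bases with CDK2, which also fell (-1.53), and the libraries mark no strand. Whether reads of CDK2 add to the value of PMEL was not tested. The channel gene BEST1 was at 59.0 to 90.5 RPKM in ZM447439 4N and 47.1 to 54.6 RPKM in untreated 2N libraries, without overlap, and did not pass. Exon positions that BEST1 may share with another gene were not checked, so its own level is uncertain.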

How the data were processed

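RNA was read from poly-A libraries made without strand information, per the labels' protocols. The authors deposited a table of RPKM values for 57773 genes in 18 libraries, and the submitters' processing notes list hg19 as build and edgeR, TopHat2 and CASAVA 1.8.2 as tools. The step that counted reads per gene is not given there. The length behind the RPKM was checked on values under 200 reads: with the genomic span 89.0% to 89.6% were whole reads within 0.05 reads, with exon length 11.7% to 12.7%, where chance gives 10%. The size of each library was chosen to make the share with the span as large as possible. Exon length was scored at that same size without a search of its own, so its share is not a separate test. Library sizes of 51.1 to 78.3 M reads follow from these steps, and so do the RPM used as an alternative.

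RPKM are not counts, so log2(RPKM + 0.5) was fitted with limma 3.58.1 in R 4.3.3, with a mean for each of the 6 groups, a trend on level and two-sided tests (12 residual degrees of freedom, prior 2.02). Adjusted p values are Benjamini-Hochberg over the 13037 genes that averaged 0.5 RPKM or more, of which 7750 are protein-coding. Differences of low genes are understated by the pseudocount. An exact permutation test of 3 against 3 libraries cannot go below p = 0.1. The fit was also run on simulated data, with the outcome not reported here. Symbols were found for 52338 identifiers (90.6%). No columns were left unmapped.

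The 26 gene lists hold 904 genes, of which 894 were found and 701 tested. The members and lists were chosen with earlier results of these data known. Named genes were the 12 largest rises and falls among protein-coding genes that passed without overlap and with at least 1 RPKM in the higher group, the 3 largest rises and falls that passed in each list, the 5 largest of each in the other comparisons, and a set of key genes. Others in the text are list members chosen after their values were seen. Just outside the filter lay ATP6V1H (mean 0.489 RPKM; 0.538 in ZM447439 4N and 0.437 in untreated 2N cells) and CDCA2 (0.491; 0.281 and 0.452), and just inside it H4C8 (0.501; 0.414 and 0.169) and KIF14 (0.502; 0.300 and 0.503). Alternatives were other pseudocounts, filters, scalings, RPM, the compared libraries alone, a replicate block and libraries left out. Figures were drawn with matplotlib 3.10.9. Results for some genes are not reported here.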

Additional observations from a re-analysis of the deposited data

Results flagged for a closer look

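Results here were singled out because a difference differed between groups by a direct test. Between ZM447439 4N and ZM447439 2N cells, whose comparisons share the untreated 2N libraries, 998 genes differed (limma, 7.66% of those tested), and between ZM447439 4N and cytochalasin D 4N cells 5672 differed (43.5%).

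For 3 named genes both drugs' 4N cells passed against untreated 2N cells in opposite directions, and the direct difference passed as well. DTX3L, a ubiquitin ligase of the interferon response, was lower in ZM447439 4N cells by -0.28 against untreated 2N cells and by -0.65 against cytochalasin D 4N cells (limma, adjusted p = 2.77e-06). ACTG1 was lower by -0.35 against untreated 2N cells and by -0.55 against cytochalasin D 4N cells. SAMHD1, a nucleotide phosphohydrolase, was lower by -0.09 against untreated 2N cells and by -0.18 against cytochalasin D 4N cells. The call of SAMHD1 against untreated 2N cells was lost without ZM447439 4N replicate 2 or 3 (adjusted p = 0.0534 and 0.0554). These differences were not weighed further.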

How the results depend on the processing

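Of 147 named genes that passed between ZM447439 4N and untreated 2N cells, 101 passed under every alternative in which they were tested. In that comparison 5906 genes passed, 9318 with RPM and 4957 to 5524 with a library left out. Between ZM447439 4N and ZM447439 2N cells the count of 998 became 1534 with RPM, 0 in a fit of those libraries alone and 208 to 2722 with a library left out. Between ZM447439 4N and cytochalasin D 4N cells it was 5672, with RPM 8740 and with a library left out 4771 to 5534. In untreated cells (4N against 2N) it was 2272, with no filter 3652, with RPM 4097 and with a library left out 1606 to 1777. RPM tests 20106 genes, more than the 13037 of the RPKM fit; the cause of the other shifts was not tested. Whether the replicate number pairs the ZM447439 4N and untreated 2N libraries was not settled. Correlations of the deviations of same-numbered libraries were 0.338, -0.158 and 0.28, and of the others -0.394 to 0.309. The deviations of the libraries of a group sum to 0, so these correlations are not independent and cannot decide the question. With the replicate block 6679 genes passed, and 1465, 6421 and 2729 in the other comparisons in the order above. Signs turned only for genes that had not passed: TOP2A ranged between -0.1142 (without untreated 2N replicate 3) and 0.0964 (without untreated 2N replicate 2), with -0.0018 and -0.0359 when ZM447439 4N replicate 2 or 3 was left out and -0.0552 without both libraries that stood apart. UBE2C lay between -0.1222 (without untreated 2N replicate 3) and 0.3663 (without untreated 2N replicate 2), at -0.0758 without both, and CDK1 was 0.0438 without untreated 2N replicate 2 and -0.38 without both. Exact permutation of 3 against 3 libraries cannot pass the threshold.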
